A study of Mus musculus with 4 samples.

Results

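LSD1 ChIP-seq peaks were examined at the loci of Myod1, Myog, Myf5 and Myf6, the 4 myogenic regulatory factor genes, in differentiating and differentiated C2C12 cells. The peaks were those overlapping 3 windows of the mouse build mm9 by at least 1 bp. These were chr7:53581000-53685000 for Myod1, chr1:136136000-136239000 for Myog and chr10:106869000-106981000 for the neighbouring genes Myf5 and Myf6. Each window is a gene span, given to the nearest kb, with 50 kb to each side. The windows were set by position, so score, width and overlap between days took no part in choosing the peaks within them. Earlier results of these data were known when the loci were chosen. The windows held 34 of the 61485 peaks in the deposited lists, 27 of 44039 at day 2 and 7 of 17446 at day 5.

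The myogenic regulatory factors are basic helix-loop-helix transcription factors that pair with E proteins and bind E-box motifs in the promoters and enhancers of muscle genes. Myf5 and Myod1 commit cells to the muscle lineage, Myog drives the differentiation of committed myoblasts, and Myf6, also called MRF4, acts in determination and again in mature fibres. LSD1, the product of Kdm1a, is a histone H3 demethylase found in complexes with CoREST and histone deacetylases. Myod1 is known to be controlled by enhancers far upstream of the gene. Myf5 and Myf6 lie side by side and are controlled by elements spread over a long stretch of chromosome 10.

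C2C12 is a single mouse myoblast line that fuses into myotubes when serum is reduced. The 4 libraries are 1 LSD1 precipitate and 1 input from differentiating cells, 48 h into 2% horse serum (day 2), and the same from differentiated cells at 120 h (day 5). The labels name no genetic change in these cells, which were fixed with formaldehyde plus disuccinimidyl glutarate before precipitation with a polyclonal antibody to LSD1. Since each group is 1 library, differences between the days have no replicate check and carry no p-value. Inputs and read depth were not analysed, and peak number and width can follow depth as well as occupancy. A peak list holds no expression, so muscle markers could not be checked.

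The sequences before the starts of Myog and Myf5 are shown because, of the 4 genes, only these 2 matched the table of promoter sequences. That table comes from RefSeq and the build GRCm38.p6. The choice did not rest on peaks, as day 2 peaks lay inside the gene span of each of the 3 windows. Each line gives the 250 bases before the start, 5′ to 3′ on the gene's own strand, with the E-box motif CANNTG in capitals. The motif reads as CANNTG on both strands.
Myog: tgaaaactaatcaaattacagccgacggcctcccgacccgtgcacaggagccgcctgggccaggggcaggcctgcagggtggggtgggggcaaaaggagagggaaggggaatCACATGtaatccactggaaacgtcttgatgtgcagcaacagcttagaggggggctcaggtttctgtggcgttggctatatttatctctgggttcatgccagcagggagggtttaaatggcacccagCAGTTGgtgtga
Myf5: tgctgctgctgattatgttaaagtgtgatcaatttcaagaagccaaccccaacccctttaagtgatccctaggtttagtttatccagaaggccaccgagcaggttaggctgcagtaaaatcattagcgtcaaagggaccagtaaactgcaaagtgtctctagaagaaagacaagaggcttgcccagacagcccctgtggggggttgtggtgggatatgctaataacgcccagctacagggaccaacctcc

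The Myog sequence held 2 E-boxes, CACATG beginning 138 bases and CAGTTG beginning 12 bases before the start. The Myf5 sequence held 0, which says only that these letters are not in this window. Of all 32851 promoter sequences of the table cut to the same length, 66.2% held at least 1 E-box and 31.8% at least 2. No genome of mm9 was used here and no coordinates were converted between builds, so these bases were not placed against the peaks.

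LSD1 peaks were more numerous around Myog and Myod1 at day 2 than around Myf5 and Myf6. The Myog window held 14 peaks at day 2 and 2 at day 5. The Myod1 window held 10 and 4, and the Myf5 and Myf6 window held 3 and 1. The ratio of day 2 to day 5 peaks was thus 7 at Myog, 3 at Myf5 and Myf6, and 2.5 at Myod1, beside 2.52 for the whole lists. With the day 2 list shortened by score to the length of the day 5 list, Myod1 held 6 day 2 peaks and Myog 3. Myf5 and Myf6 then held 0, and the ratio was 1.5 at both Myod1 and Myog and 1.29 over the 3 windows. The lists are then of equal length, so 2.52 is not the background of these ratios. With peaks at or above the median score of their own list the ratio was 3 at Myod1, 1.5 at Myog and 1.8 over the 3 windows. The lists held 22020 such peaks at day 2 and 8723 at day 5. The higher ratio at Myog, and its place above Myod1 by day 2 count, were thus found with the full lists and not among the higher-scoring peaks. Over the 3 windows the ratio with the full lists was 3.86.

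For comparison, the genome was laid out in tiles of each window's length, and tiles with a peak on either day were counted. At day 2, 98.4% of 12106 such tiles held fewer peaks than the 14 at Myog, and 189 tiles (1.56%) held at least as many. The median tile held 3 peaks at day 2 and 1 at day 5. For Myod1, 93.6% of 12029 tiles held fewer than its 10 peaks. For Myf5 and Myf6, 45.5% of 11416 tiles held fewer than 3. At day 5 the order differed: 89.2% of tiles held fewer peaks than Myod1, 64.4% fewer than Myog and 33.8% fewer than Myf5 and Myf6. In the full lists Myog thus had the most peaks of the 3 windows at day 2 and Myod1 the most at day 5, while Myf5 and Myf6 had the fewest on both days, at the number of the median tile. With 25 kb flanks Myog and Myod1 tied at 7 day 2 peaks. With peaks less than 1 kb apart merged, Myog held 10 day 2 peaks and Myod1 9. The tiles were counted without merging.

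**Figure D1:**
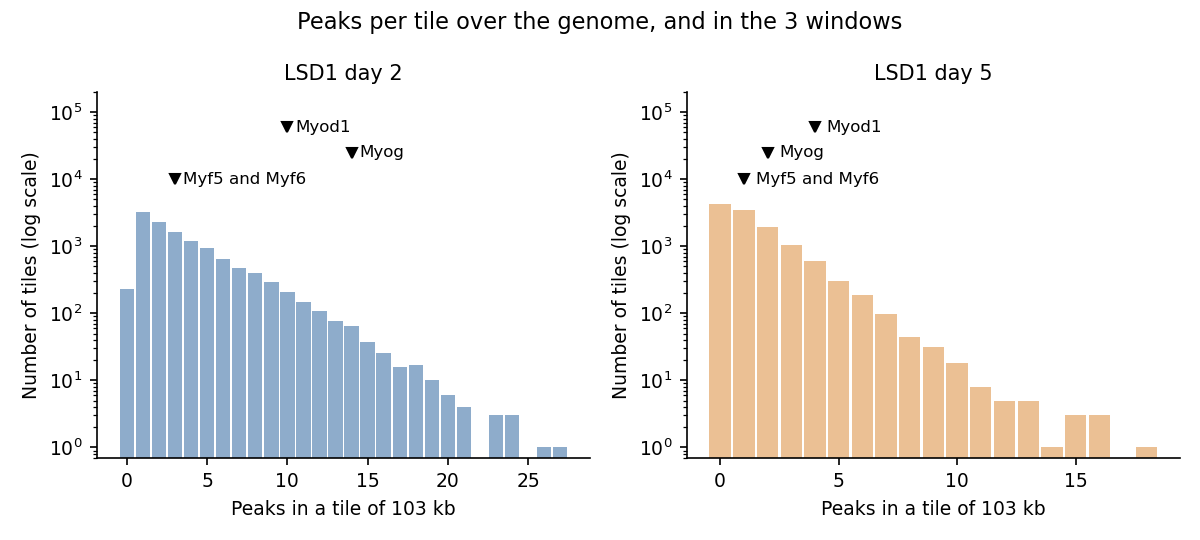
Number of genome tiles (log scale) against the number of LSD1 peaks in a tile of the length of the Myog window, 103 kb, at day 2 (left) and day 5 (right), for tiles with a peak on either day. Triangles stand above the number of peaks in each of the 3 windows: at day 2 Myog (14) and Myod1 (10) lie in the right tail, and at day 5 Myod1 (4) lies to the right of Myog (2).

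At Myod1, the strongest LSD1 sites lay on the lower-coordinate side of the gene, which is the upstream side, since Myod1 is transcribed toward higher coordinates. Of the 10 day 2 peaks, 6 were below the gene span, 1 inside it and 3 above it. The score given here is that of the authors' peak caller, with no stated scale, and it is used only within a list. The highest-scoring peak was chr7:53605295-53606143, with a score of 938.95, place 218 of the 44039 day 2 peaks. It was 849 bp wide and lay 24.9 kb below the gene span. Inside it was the highest-scoring day 5 peak of the Myod1 window, chr7:53605543-53605798, with a score of 152.11, place 1846 of the 17446 day 5 peaks. This site was therefore the strongest of all 3 windows in both lists.

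The strongest Myod1 site belonged to a group of 3 day 2 peaks within 4.09 kb. The next peak, chr7:53606200-53606831, followed after 56 bp, scored 137.38 and had no day 5 peak. The third, chr7:53608078-53609385, was 1308 bp wide, scored 363.00 (place 3653) and lay 21.6 kb below the gene span. A day 5 peak of 395 bp lay inside it at chr7:53608329-53608723, with a score of 79.19 (place 7352). Both day 5 peaks upstream of Myod1 were thus in this group. No annotation of enhancers was used here, and whether the group falls on a known enhancer of Myod1 was not analysed.

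Other upstream peaks at Myod1 were found at day 2 alone. The peak chr7:53596274-53597381 scored 295.02 and was above 87.7% of the day 2 list, and chr7:53620916-53621583 scored 205.47, above 77.9% of it. The nearest day 5 peaks were 8.16 and 12.2 kb away. The outermost, chr7:53592786-53593410, scored 57.39. These 3 peaks stood in deciles 9, 8 and 2 of the day 2 list by score. In those deciles 60.8, 44.8 and 7.40% of all peaks had a day 5 peak.

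Within the Myod1 gene span the 2 days gave different peaks, both of low rank. The day 2 peak chr7:53631427-53631896 scored 52.25, close to the lowest score of the list, with 3.93% of the list below it. The day 5 peak chr7:53634445-53634762 scored 61.58, with 32.9% of its list below it, and overlapped no day 2 peak. They were 2.55 kb apart, and the day 2 peak nearest to this day 5 peak was chr7:53635911-53636406, after 1.15 kb and just beyond the span, with a score of 76.96.

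On the far side of Myod1 1 further site was found on both days, at chr7:53651929-53652585 at day 2 (score 158.47) and chr7:53652015-53652217 at day 5 (score 53.53). The last day 2 peak, chr7:53663470-53663991, scored 66.95 and had no day 5 peak. At day 5 the 4 Myod1 peaks stood far from other peaks. The next peak of that list was 406.5 kb below the first of them and 436.5 kb above the last, beside a median of 33.1 kb between neighbouring day 5 peaks. Of the distances between neighbouring day 5 peaks, 6.70% and 6.33% were at least as long. At day 2 the corresponding distances were 19.9 and 135.5 kb, beside a median of 12.8 kb.

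**Figure D2:**
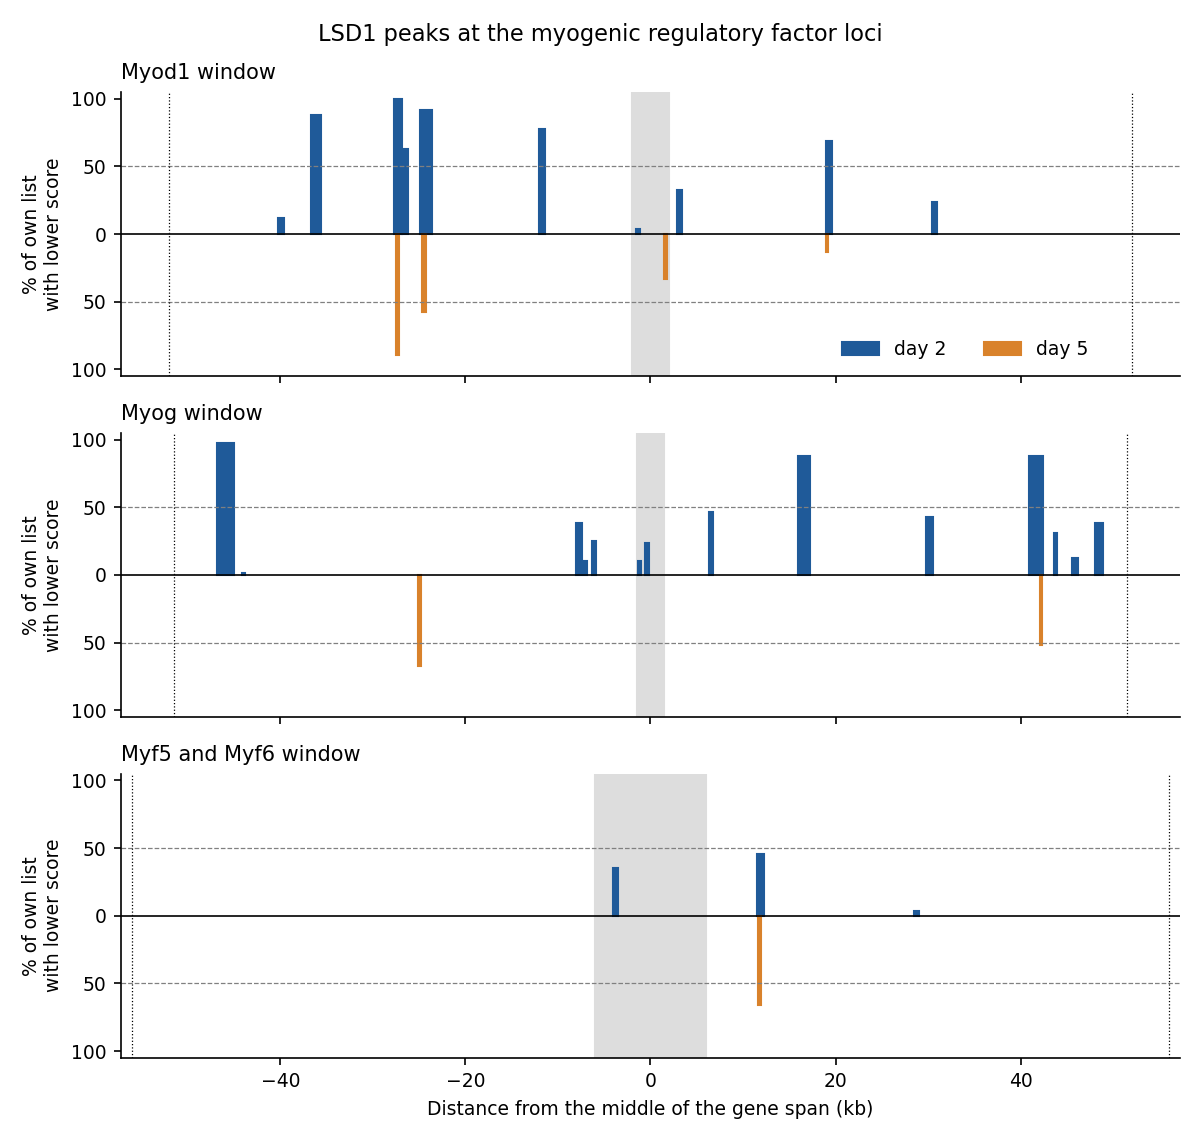
LSD1 peaks in the windows of Myod1, Myog, and Myf5 and Myf6 against distance from the middle of the gene span (grey band), in kb, with dotted lines at the window's ends. Bars, drawn to scale with an outline, show the percent of a peak's own list with a lower score, upward for day 2 and downward for day 5, and dashed lines mark 50%. The tallest day 5 bar is 89.4% at Myod1 and 67.2% at Myog, and the tall pair upstream of Myod1 is met by day 5 bars while the tall peak at the left of Myog is not.

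At Myog, day 2 peaks were found at the gene and on both sides of it, and day 5 peaks were not found near it. Myog is transcribed toward higher coordinates in the RefSeq table, so lower coordinates are upstream. Inside the gene span lay 2 day 2 peaks, chr1:136186113-136186485 (373 bp, score 56.39) and chr1:136186868-136187334 (467 bp, score 66.84), 382 bp apart. Upstream, between 4.41 and 5.94 kb from the span, lay a group of 3 peaks within 2.10 kb. These were chr1:136179501-136180065 (score 84.90), chr1:136180309-136180678 (56.07) and chr1:136181201-136181595 (67.99). All 5 were below the median of the day 2 list by score, at 10.2 to 38.6% of it, and below the median by width. Downstream, chr1:136193874-136194235 scored 98.07 and lay 4.87 kb from the span. None of these 6 peaks had a day 5 peak, and the day 5 peaks closest to them were 16.8 to 31.2 kb away. They stood in deciles 2 to 5 of the day 2 list by score, where 7.40 to 19.1% of all peaks had a day 5 peak. Having none was thus common among peaks of such scores.

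The strong LSD1 sites of the Myog window lay far from the gene. The strongest was chr1:136140693-136142490, 43.5 kb below the span, 1798 bp wide, with a score of 597.34 (place 1007 of the day 2 list). It had no day 5 peak, the nearest being 19.9 kb away. Of the 1007 day 2 peaks with at least this score, 982 (97.5%) had a day 5 peak, so it was 1 of 25 that did not. The cutoff was its own score, the lowest of the 1007, so the other peaks counted were stronger. In the top decile of the day 2 list by score, 85.9% of peaks had a day 5 peak. The strongest peak was followed after 855 bp by chr1:136143346-136143714, which scored 50.58 and was the weakest of the window. On the other side, chr1:136203471-136204776 scored 300.99, was 1306 bp wide, lay 14.5 kb from the span and also had no day 5 peak.

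A pair of strong sites of almost equal score on the downstream side of Myog differed in this respect. The peak chr1:136228372-136229893, 39.4 kb above the span, scored 299.89 and was 1522 bp wide. It held the day 5 peak chr1:136229588-136229857, of 270 bp and a score of 73.55 (place 8468), the single site of the Myog window found on both days. It opened a group of 4 day 2 peaks over 8.02 kb, of which the others, chr1:136231069-136231465, chr1:136233035-136233696 and chr1:136235488-136236389, scored 75.29, 57.76 and 83.98. The remaining day 2 peak, chr1:136217249-136218064, scored 91.65.

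The other day 5 peak of the Myog window, chr1:136162407-136162692, stood where day 2 had none. It was 286 bp wide, scored 90.58 (place 5730) and lay 23.3 kb below the gene span. The nearest day 2 peak was 16.8 kb away, and no day 2 peak lay in the 35.8 kb around it. Of the 5731 day 5 peaks with at least this score, 128 (2.23%) had no day 2 peak, beside 13.9% of the whole day 5 list. The cutoff was again the peak's own score. Between this peak and the one downstream, 66.9 kb including Myog held no day 5 peak.

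The order of genes in GRCm38.p6 was used for names alone. There, Myog stands between Myoparr, a long noncoding RNA, and Ppfia4, Myod1 between Gm45923 and Kcnc1, and Myf5 and Myf6 between Lin7a and Gm36177. Peaks of the windows were not assigned to these neighbours or to the 4 factors.

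At Myf5 and Myf6 LSD1 peaks were as many as in the median tile on both days, and no day 2 peak there was in the upper part of its list by score. The day 2 peak chr10:106920999-106921473 lay inside the 12 kb span that holds both genes, was 475 bp wide and scored 79.88, above 34.9% of the list. It had no day 5 peak within 15.1 kb. The second, chr10:106936538-106937297, lay 5.54 kb above the span, was 760 bp wide and scored 96.12, above 45.6% of the list. It held the only day 5 peak of the window, chr10:106936618-106936957, 340 bp wide, with a score of 89.37, above 66.0% of the day 5 list. The third, chr10:106953500-106954047, scored 52.14 and was found at day 2 alone.

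The Myf5 side of this window was empty over a long distance. Below the first day 2 peak, 707.9 kb held no day 2 peak, and 1.28% of the distances between neighbouring day 2 peaks were at least as long. Below the day 5 peak, 723.7 kb held no day 5 peak, and 3.92% of the distances between neighbouring day 5 peaks were at least as long. Whether reads can be placed along this stretch was not analysed here.

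Across the 3 loci, the share of day 2 peaks with a day 5 peak was not told apart from that of the list. Of the 27 day 2 peaks, 5 had one (18.5%, exact binomial 95% interval 6.30 to 38.1), beside 30.4% of the whole list. This interval, like the others here, covers counting error only, treats peaks as independent, and includes the share of the list. The other 22 had none, beside 69.6% of the list without one. By window the numbers were 3 of 10 at Myod1, 1 of 14 at Myog and 1 of 3 at Myf5 and Myf6. Of the 7 day 5 peaks, 5 had a day 2 peak (71.4%, 29.0 to 96.3), beside 86.1% of the list. The 2 without one (13.9% of the list had none), at Myod1 and Myog, were described above.

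In the day 2 list as a whole, peaks of higher score more often had a day 5 peak, and 18 of the 27 peaks of the 3 loci were below the median score, 11 of them at Myog and 4 at Myod1. In the lower part of the list, split at its median score, 11.4% of peaks had a day 5 peak, and 1 of 18 peaks of the 3 loci did. In the upper part it was 49.4% of the list and 4 of 9 at the loci. In the top decile it was 85.9% of the list and 2 of 3 at the loci, the third being the strong peak 43.5 kb below Myog. In each of these broad parts of the list, the share at the 3 loci was below that of the list. Counts of 18, 9 and 3 peaks are too small to tell such shares apart or to show that they are alike. Peaks were also not matched by score within a part.

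**Figure D3:**
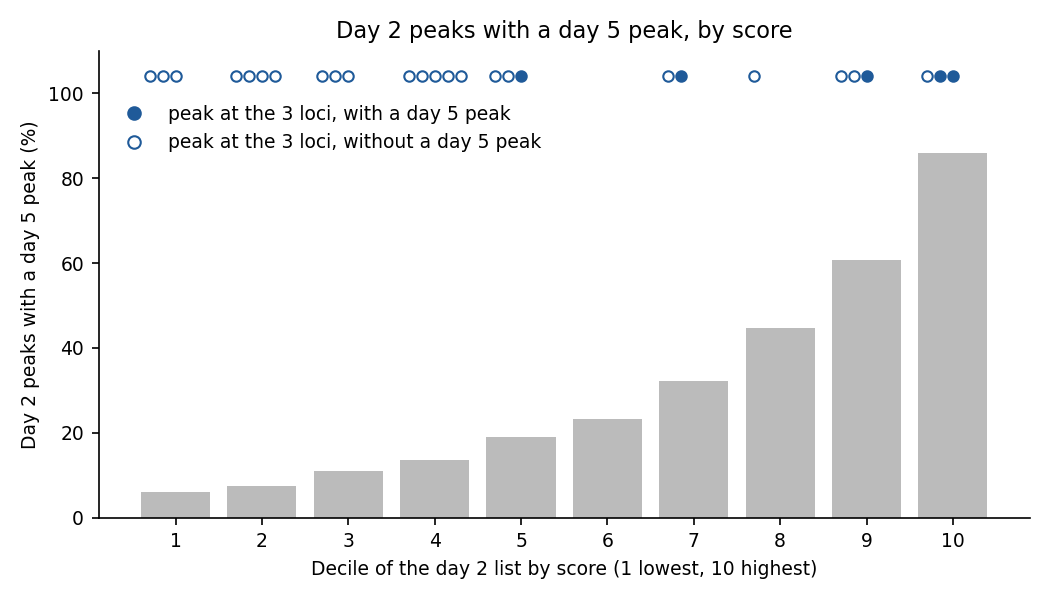
Percent of day 2 LSD1 peaks with a day 5 peak (grey bars) in each decile of the day 2 list by score, from 1 (lowest) to 10 (highest). Circles along the top are the 27 peaks of the 3 loci in their decile, filled for the 5 with a day 5 peak: 18 stand in deciles 1 to 5, where the list's share runs from 5.97 to 19.1%.

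Median score ranks at day 2 differed between the loci, a difference that was not tested. The median day 2 peak of the 3 windows had 38.1% of its list below it (order-statistic 95% interval 23.4 to 68.5). Of the 27 peaks, 9 scored at or above the list median (33.3%, exact interval 16.5 to 54.0), beside 50% of the list. Both intervals include 50%, so the ranks of the 3 loci together were not told apart from those of the list. At Myod1 the median was 65.5% and 6 of 10 peaks were at or above the list median. At Myog it was 34.7% with 3 of 14, and at Myf5 and Myf6 34.9% with 0 of 3. The median rank at Myod1 was thus the highest of the 3, although single peaks ran from 3.93 to 99.5% at Myod1 and from 1.23 to 97.7% at Myog. At day 5, 5 of 7 peaks scored at or above the median of their list (71.4%, exact interval 29.0 to 96.3), beside 50%. At the 5 sites found on both days, the rank was higher at day 2 in 4, beside 76.8% of the 15073 overlapping pairs of the lists. The site at Myf5 and Myf6 went the other way, with 45.6% of the list below it at day 2 and 66.0% at day 5. The lists differ in length, so these ranks are not on a common scale.

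Peaks at the 3 loci were broader at day 2 than at day 5, as in the whole lists. At day 2 the median width was 625 bp (interval 470 to 816) and the range 362 to 1798 bp, beside a list median of 663 bp. At day 5 the median was 286 bp (203 to 395), beside 331 bp. At or above the list median width were 10 of 27 day 2 peaks (37.0%, 19.4 to 57.6), beside 50.1%. At day 5 it was 2 of 7 peaks (28.6%, 3.67 to 71.0), beside 50%. The interval at day 2 includes the list median, so the widths of these loci were not told apart from those of the list.

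Peaks together covered 19.4 kb of the 3 windows at day 2 and 2.07 kb at day 5, a ratio of 9.39, beside 5.21 for the whole lists. At Myog they covered 10.0% of the window at day 2 and 0.540% at day 5. At Myod1 it was 7.05 and 1.13%, and at Myf5 and Myf6 1.59 and 0.304%. The covered length at day 2 exceeded that at day 5 in each window.

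At the 5 sites found on both days, the day 5 peak lay wholly inside a broader day 2 peak, as it did in 88.4% of the 15073 overlapping pairs of the lists. The day 2 peak was 3.32, 3.31 and 3.24 times as wide as its partner at the 3 Myod1 sites, in order along the chromosome. At the Myog site it was 5.64 times as wide, and at the site on the Myf6 side of the Myf5 and Myf6 span 2.24 times. The median over all pairs was 2.59, with quartiles of 1.88 and 3.77, so the Myog pair was beyond the upper quartile and the others were between the quartiles. Midpoints were 48.5 to 590 bp apart, the largest distance being that at Myog, where the day 5 peak stood near one end of the day 2 peak.

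**Figure D4:**
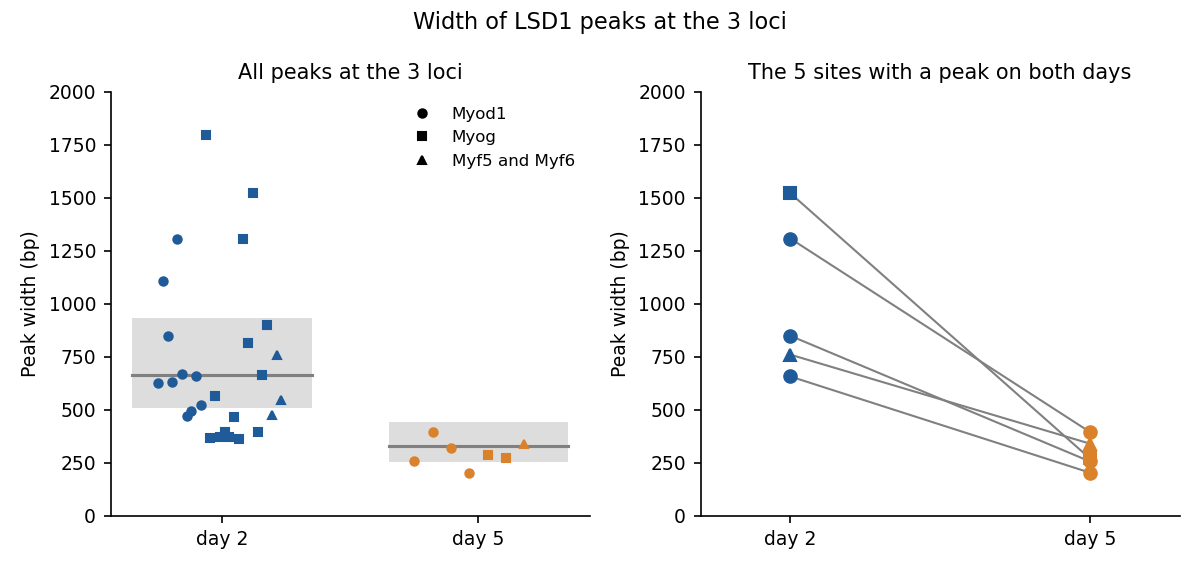
Width in bp of the 27 day 2 and 7 day 5 LSD1 peaks of the 3 loci (left; each point is a peak, shaped by window, the grey box spans the quartiles of the whole list and the line is its median), and of the 5 sites with a peak on both days (right; lines join the overlapping peaks). The day 5 peaks are 203 to 395 bp wide, and each of the 5 joined day 2 peaks is the broader.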

How the data were processed

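The authors deposited 1 peak list for each LSD1 library, from MACS run in Galaxy per the file headers. Bowtie2, deepTools and mm9 are named in the submitters' processing notes. Not given in the sources used here are the MACS version, cutoff, treatment of duplicates and use of the input. The peak score is as the authors deposited it, on a scale not stated, and depends on depth and the caller's settings, as do peak number and width. Groups came from the sample titles.

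Starts, counted from 0 in the lists, are printed counted from 1. Gene spans are the windows without their 50 kb flanks. All peaks of the windows were described, which was the rule for naming. Members and lists were chosen with earlier results of these data known. Intervals for shares are exact (Clopper-Pearson, 95%). Overlap counting was tested on simulated data and found each planted pair. No mm9 annotation was used, so the planned list of other myogenic genes was not run. Software was SciPy 1.17.1, pandas 2.3.3 and NumPy 2.4.6 under Python 3.11.15, with Matplotlib 3.10.9 for plots.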

Additional observations from a re-analysis of the deposited data

How the results depend on the processing

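Of 61 alternatives for 11 values, 46 stayed within 1.5 times (counts) or within the interval (shares and medians), 15 moved and 0 reversed; these values cannot change sign. Counts followed the flank by construction. With 10 kb flanks, Myod1 held 3 peaks at day 2 and 1 at day 5, and Myog 6 and 0. With 25 kb flanks, Myog held 7 and 1 and Myod1 7 and 3, a tie at day 2. Merging peaks less than 1 kb apart left 10 and 2 at Myog, a ratio of 5, and 9 and 4 at Myod1, a ratio of 2.25. With peaks at or above the median score of their own list, Myod1 held 6 and 2, Myog 3 at day 2 and Myf5 and Myf6 0 at day 2. With the day 2 list cut to the length of the day 5 list by score, the day 2 counts were 6 at Myod1, 3 at Myog and 0 at Myf5 and Myf6, so under both of these settings Myod1 and not Myog held the most. Day 2 exceeded day 5 in each window under each flank, but under the last 2 settings Myf5 and Myf6 held 0 at day 2 and 1 at day 5. The share of day 2 peaks with a day 5 peak was 0% when overlap of 50% of both peaks was required, beside 9.65% of the list. With a gap of up to 1 kb allowed it was 22.2%, beside 35.6% of the list. With the peaks of both days limited to those at or above the median score of their list it was 33.3%, beside 31.8%. The lower share was not found under that setting. With the upper part of the day 2 list by score and all day 5 peaks it was 4 of 9, beside 49.4%. The median day 2 width among peaks at or above the median score was 1108 bp. No replicate could be left out, as each group is 1 library, and depth is unknown.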

Other observations

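Between 50 and 100 kb from the gene spans, 10 day 2 peaks and 1 day 5 peak were found, and 9 of the 10 had no day 5 peak, beside 69.6% of the whole day 2 list. The whole lists hold 2.52 times as many day 2 as day 5 peaks. Beyond the Myod1 window on its upstream side stood 4 day 2 peaks from chr7:53568782-53569237 to chr7:53572013-53572934, with scores of 75.72 to 240.41 and no day 5 peak. Beyond the Myog window stood 5 day 2 peaks with scores of 72.63 to 183.82. Of these, chr1:136242704-136243487 (score 105.74) was the only one with a day 5 peak, chr1:136242770-136243108 (51.59). Beyond the Myf5 and Myf6 window stood 1 day 2 peak, chr10:106997811-106998333 (81.99), without a day 5 peak.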
